A study of Mus musculus with 18 samples.

Results

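Translation initiation and elongation factors, the proteins that bring ribosomes onto mRNAs and move them along, were followed through poly-A RNA and ribosome footprints of mouse left ventricle. The members are the genes whose symbol begins with Eif1 to Eif6 or with Eef1 or Eef2 in the deposited tables. The rule matched 64 symbols and left out 9 of them, which were the 4 Eif2ak kinases, Eif4a3, Eif4enif1, Eif2s3y and the methyltransferases Eef1akmt1 and Eef1akmt2. That left 55 members of 10597 genes. The hearts came from male C57BL/6 mice aged 20 weeks, 5 mORF4/NBDY KO (hearts 6 to 10) and 4 WT (hearts 1 to 4), and no mouse was treated. From each heart came 1 RNA library, of poly-A transcripts, and 1 library of ribosome footprints, the mRNA fragments that a ribosome shields from nuclease. The labels state neither how the KO allele was made nor whether the mice were littermates.

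Initiation starts when eIF2 with GTP carries the initiator tRNA to the small ribosomal subunit, which eIF1, eIF1A, eIF3 and eIF5 also bind. The mRNA cap is held by eIF4E, which joins the scaffold eIF4G and the helicase eIF4A, and 4E-BPs compete with eIF4G for eIF4E. At the start codon eIF5 makes eIF2 hydrolyse its GTP, eIF5B then joins the large subunit, and eIF2B recharges eIF2. In elongation eEF1A delivers each aminoacyl-tRNA, eEF1B recharges eEF1A, eEF2 translocates the ribosome, and eIF5A helps at difficult peptide bonds. Cardiac and skeletal muscle are known to use eEF1A2 beside the widespread eEF1A1. NBDY, the microprotein missing in the KO mice, is known to bind the mRNA decapping machinery, which acts on the same cap structure that eIF4E binds.

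The targeted gene Nbdy had 10.9 to 19.0 normalized footprint reads in KO hearts, against 107 to 356 in WT hearts, and 61.8 to 90.0 normalized RNA reads in KO hearts, against 100.1 to 116 in WT hearts. RNA depth over the listed genes was 15.8 to 20.2M reads (M stands for 1e6) in KO and 11.2 to 12.4M in WT, so genotype and RNA depth cannot be told apart. Footprint libraries held 22.9 to 40.8M reads in KO and 6.67 to 36.7M in WT, with WT heart 2 the shallowest. After the deposited scaling, RNA libraries still summed to 14.0 to 14.7M normalized reads in KO and 15.5 to 16.5M in WT, which bears on small changes of abundant genes. All 8 ventricular cardiomyocyte markers were present, with RNA sums of 1566820 to 1794930 normalized reads in KO and 1761630 to 2070060 in WT. Of these 8, 1 was higher and 4 were lower in RNA. RNA of 3 atrial markers summed to 5257 to 8852 in KO and 15049 to 16771 in WT, and RNA of 5 skeletal muscle markers to 78234 to 91516 in KO and 94839 to 135137 in WT. Single markers differed in direction, with Myl4 (-1.56) and Nppa (-0.79) lower and Myl7 (1.53) not past the test among the atrial ones, and 2 lower and 1 higher, Ckm at 0.17, among the skeletal ones. RNA sums of endothelial, fibroblast, smooth muscle, macrophage and erythrocyte markers overlapped between genotypes, though single markers passed. Of the 6 endothelial markers 2 were higher and 3 lower, of smooth muscle 2 higher and 1 lower, and of macrophage 1 each way. Among fibroblast and among erythrocyte markers 1 was higher and none lower. Over all genes 24.3% were higher in RNA and 25.1% lower. The part of these marker differences in the results was not tested, and in whole tissue fewer cells of a type and less RNA per cell cannot be told apart.

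At the RNA level the factors shifted in both directions, with more lower than higher in KO hearts. Of the 55 members, 21 were lower in KO (38.2%) and 11 were higher (20.0%), by limma with Benjamini-Hochberg adjustment over all genes at a threshold of 0.05, and 23 did not pass. The background is large, since 49.4% of all genes tested passed, 24.3% higher and 25.1% lower. Log2 changes are KO over WT on the scale log2(normalized reads + 1), given ± SE. Their median was -0.09 over the members and 0.01 over all genes. Among the members that passed, the absolute log2 change ran from 0.13 to 1.01 with a median of 0.38, and 10 of them reached 0.5. The KO hearts lay entirely below the WT hearts for 19 members and entirely above for 9, together 28 of 55, while 20.6% of all genes lay entirely below, 19.8% entirely above and 40.5% in either direction.

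**Figure D1:**
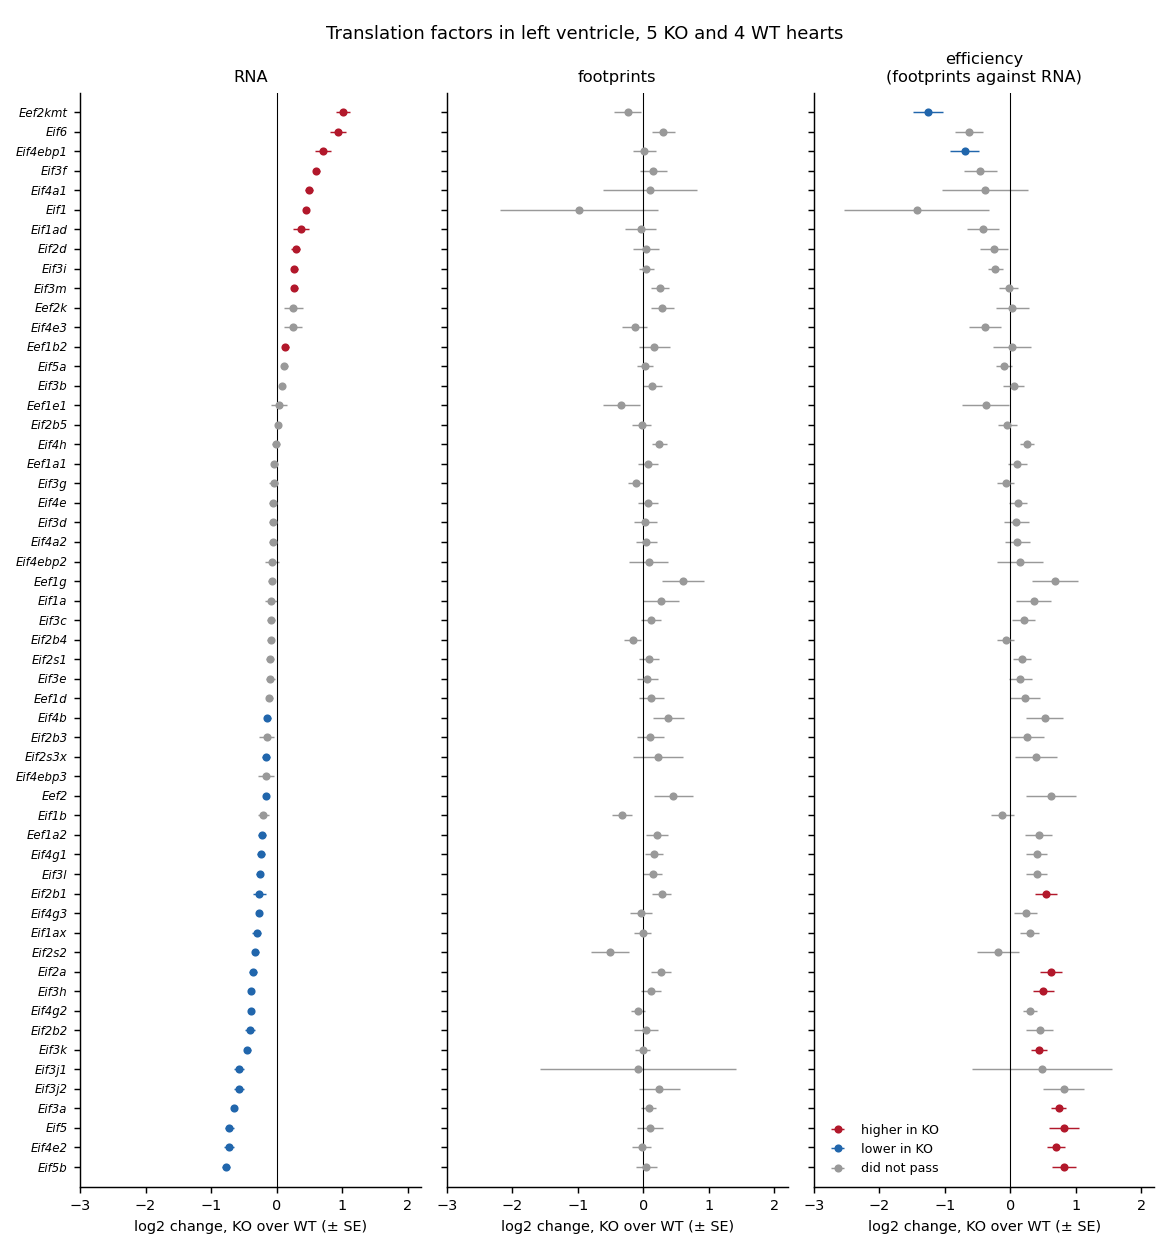
Log2 change of each member, KO over WT, in RNA, in footprints and in efficiency, with standard errors. Genes are ordered by their RNA change, from Eef2kmt at the top to Eif5b at the bottom, and colour marks those past the test. In RNA 32 members passed, in footprints none of 54 did, and the 10 that passed in efficiency have the opposite sign to their RNA change.

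Among the factors of start codon selection and subunit joining, 4 of 9 were lower and 3 were higher in RNA. The shares over all genes were 25.1% lower and 24.3% higher. Eif5b, the GTPase that joins the large subunit, had 2493, 2699.8, 2803, 2733 and 2837 normalized RNA reads in KO hearts 6 to 10, against 4407, 4486, 4601 and 5054 in WT hearts 1 to 4. Every KO heart lay below every WT heart, and the log2 change was -0.77 ± 0.056 (adjusted p = 1.25e-06). Eif5, which triggers GTP hydrolysis by eIF2, had 1477, 1726, 1679.6, 1810.0 and 1768 normalized RNA reads in KO hearts, against 2939.8, 2676, 2609 and 2946 in WT hearts. These groups did not overlap either, with a log2 change of -0.72 ± 0.067 (adjusted p = 6.53e-06). Eif1, which keeps the scanning complex from settling on a wrong codon, moved the other way, with 3369, 3518, 3525, 3413 and 3665 normalized RNA reads in KO hearts, against 2602, 2517, 2627 and 2523 in WT hearts. All KO hearts were above all WT hearts, by 0.45 ± 0.043 on the log2 scale (adjusted p = 9.24e-06). Its paralogue Eif1b had 417, 381, 464, 398 and 449.8 normalized RNA reads in KO hearts, against 445, 449.6, 522 and 533 in WT hearts, and did not pass (-0.21 ± 0.084, adjusted p = 0.0592), though it did without KO heart 8, WT heart 1 or WT heart 2 (log2 change -0.25 to -0.24). Eif2a, an initiator tRNA carrier distinct from eIF2, fell by 0.36 and Eif1ax, the X-linked eIF1A gene, by 0.30 on the log2 scale, while Eif2d, which can deliver tRNA without eIF2, rose by 0.29. Eif1ad rose by 0.37 but did not pass under quantile normalization or without KO heart 6, 8 or 10 or WT heart 1 or 2 (0.27 to 0.36). It overlaps Banf1, as Eif5b overlaps Rev1, and the RNA kit does not mark strand. RNA reads from the stretch that a gene shares with its neighbour cannot be told apart, and the length of these stretches was not measured. The same holds for Eef2kmt with Alg1, Eif3j1 with Spg11, Eif4a2 with Rfc4, Eif4e3 with Gpr27 and Eif5a with Gps2.

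The multi-subunit scaffold eIF3 was represented by 14 genes, of which 6 were lower, 3 were higher and 5 did not pass in RNA. For comparison, 25.1% of all genes were lower and 24.3% higher. Eif3a, the largest subunit, had the smallest adjusted p of all members, with 4301, 4269.6, 4379.8, 4325 and 4314 normalized RNA reads in KO hearts, against 6755, 6887, 6799 and 6765 in WT hearts. The hearts of a genotype lay close together, and the log2 change was -0.66 ± 0.038 (adjusted p = 2.95e-07). Eif3f, a subunit with an MPN domain, had 1866, 1821, 2015, 1909 and 1941 normalized RNA reads in KO hearts, against 1366, 1187, 1305 and 1161 in WT hearts. Here all KO hearts lay above all WT hearts, by 0.61 ± 0.059 (adjusted p = 9.24e-06). Within the complex, Eif3k fell by 0.45, Eif3h by 0.39 and Eif3l by 0.26 on the log2 scale, while Eif3i and Eif3m each rose by 0.27. Eif3b, Eif3c, Eif3d, Eif3e and Eif3g did not pass, with log2 changes of -0.10 to 0.09. Eif3j1 and Eif3j2 both fell by 0.57, but their RNA values differed by at most 0.964% in any library, so these near-identical copies cannot be told apart in RNA. The counts of lower members, in eIF3 and over all members, include both.

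**Figure D2:**
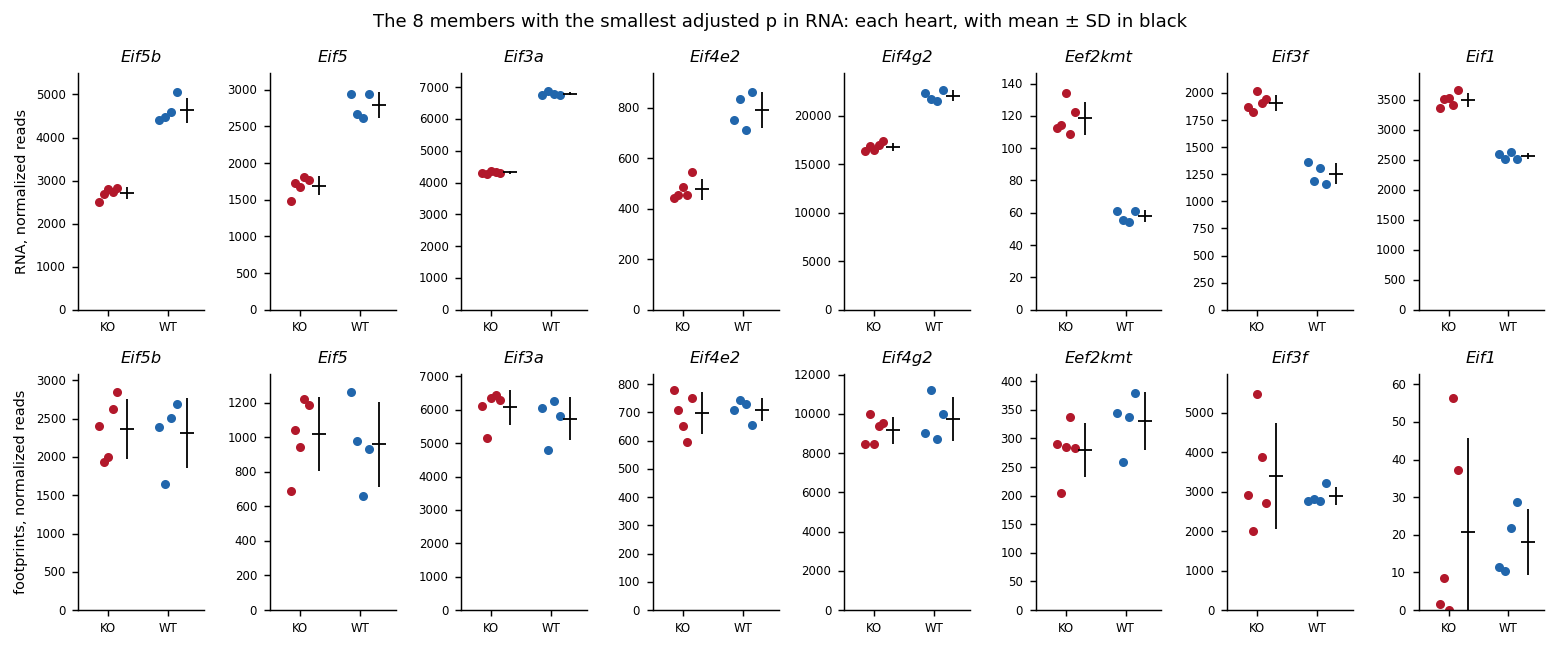
Normalized reads of each heart in RNA (top) and footprints (bottom) for the 8 members with the smallest adjusted p in RNA, KO to the left of WT, with mean and SD in black. The RNA values of the genotypes do not overlap for any of the 8, while the footprint values overlap for all of them.

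In the cap-binding group 5 of 10 members were lower and 1 was higher in RNA, where 25.1% of all genes were lower and 24.3% higher. Eif4e2, a cap-binding protein that does not recruit eIF4G and is known to repress translation, had 443, 455, 487, 455 and 548 normalized RNA reads in KO hearts, against 752, 835, 712 and 863 in WT hearts. The highest KO heart stood below the lowest WT heart, at a log2 change of -0.73 ± 0.081 (adjusted p = 2.49e-05). Eif4e itself, the canonical cap-binding factor, had 804, 881, 913, 879 and 933 normalized RNA reads in KO hearts, against 853, 913, 926 and 962 in WT hearts. These values overlapped and the change of -0.051 ± 0.06 did not pass (adjusted p = 0.499). All 3 eIF4G genes were lower. Eif4g2, which lacks the eIF4E-binding site, had 16378, 16898, 16511, 17016 and 17409 normalized RNA reads in KO hearts, against 22387, 21795, 21534 and 22710.5 in WT hearts, without overlap and with a log2 change of -0.39 ± 0.044 (adjusted p = 2.53e-05). The scaffolds Eif4g3 and Eif4g1 fell by 0.27 and 0.24, and the call for Eif4g1 was lost under quantile normalization (-0.12). Eif4b, a helper of the helicase, fell by 0.14, but not past the test under quantile normalization (-0.066) or without KO heart 6, 7, 9 or 10 or WT heart 2, 3 or 4 (-0.15 to -0.13). The helicase gene Eif4a1 rose by 0.49, whereas Eif4a2, Eif4h, another helper of the helicase, and Eif4e3, a further member of the eIF4E family, did not pass.

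Of the 3 eIF2 subunits and of the 5 eIF2B subunits 2 each were lower in RNA, and none was higher. Over all genes 24.3% were higher and 25.1% lower. Eif2s2, the beta subunit of eIF2, fell by 0.32, and Eif2b2, the beta subunit of eIF2B, by 0.41 on the log2 scale. Eif2b1, the alpha subunit of eIF2B, had 219, 259, 287, 235 and 282 normalized RNA reads in KO hearts, against 279.8, 309.7, 301 and 341 in WT hearts. KO hearts 8 and 10 reached into the WT range, and the log2 change was -0.27 ± 0.10 (adjusted p = 0.0394), lost without KO heart 6, 7 or 9 or WT heart 2, 3 or 4 (-0.28 to -0.21). Eif2s3x, the X-linked gamma subunit of eIF2, fell by 0.16, a call lost under TMM (-0.15) and quantile scaling (-0.084) and without KO heart 6, 7, 9 or 10 or WT heart 2 or 3 (-0.17 to -0.14).

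Of the 10 elongation genes, 2 were lower and 2 higher in RNA, and 6 did not pass. Among all genes 25.1% were lower and 24.3% higher, so neither share was larger in this group. Eef1a2, the eEF1A of muscle and neurons, had 24703, 28053, 29063, 25315 and 28461 normalized RNA reads in KO hearts, against 29528, 30797, 32441 and 33658 in WT hearts. The highest KO heart was just below the lowest WT heart, and the log2 change of -0.22 ± 0.066 passed (adjusted p = 0.0147), though not under quantile normalization (-0.061). Eef1a1, its widespread paralogue, had 13718, 13422, 12429.7, 12369.6 and 12598 normalized RNA reads in KO hearts, against 13049.7, 14575, 12667 and 12578 in WT hearts, and did not pass (-0.033 ± 0.058, adjusted p = 0.659). Eef2, the translocase, had 30565, 30731, 30960.2, 29763 and 31349 normalized RNA reads in KO hearts, against 34075, 34936, 34350.5 and 34260.5 in WT hearts. It was lower in all KO hearts, with a log2 change of -0.17 ± 0.045 (adjusted p = 0.00878), but quantile normalization turned the sign (0.0502), so its direction depends on the scaling. Eef2kmt, the methyltransferase of eEF2, was the member with the largest RNA change, at 112, 115, 134, 108 and 122 normalized RNA reads in KO hearts, against 61.2, 55.7, 54.4 and 60.9 in WT hearts. That is a log2 change of 1.01 ± 0.11 (adjusted p = 2.01e-05) with no overlap, for a gene of low level. Eef1b2, a subunit of eEF1B, rose by 0.13, and its call was lost without KO heart 6, 7 or 8 or WT heart 1, 3 or 4 (0.11 to 0.13). Eef1g, the structural subunit of eEF1B, had 5242, 4974, 5102, 4648 and 5294 normalized RNA reads in KO hearts, against 5425, 5366, 5395 and 5099 in WT hearts, and did not pass (-0.076 ± 0.05, adjusted p = 0.225). Eif5a, whose protein carries the modified lysine hypusine, had 2161, 2167, 2316, 2382 and 2253 normalized RNA reads in KO hearts, against 2185, 2010.5, 2125 and 1999 in WT hearts. The groups overlapped and the test did not pass (0.12 ± 0.05, adjusted p = 0.0725), except under quantile normalization (0.19) and without WT heart 1 (0.14). Eef1d, Eef1e1, which is a scaffold of the tRNA synthetase complex rather than an elongation factor, and Eef2k, the kinase that inhibits eEF2, did not pass.

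Among the 4E-BP genes and Eif6, known to restrain translation, Eif4ebp1 and Eif6 rose in RNA. Eif4ebp1, whose protein 4E-BP1 sequesters eIF4E unless mTORC1 phosphorylates it, had 534, 653, 783, 828.8 and 641 normalized RNA reads in KO hearts, against 383, 369, 459.6 and 450.5 in WT hearts. Every KO heart was above every WT heart, by 0.71 ± 0.12 (adjusted p = 0.000558). Eif6, which keeps free large subunits from joining, rose by 0.93 on the log2 scale. Eif4ebp2 and Eif4ebp3, the other 4E-BP genes, did not pass.

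In the footprints no member passed the test. For none of the 55 members did the KO hearts separate from the WT hearts, where 1.6% of all genes tested did. Of 54 members tested, 0 passed with limma, 0 with edgeR's quasi-likelihood test and 0 with DESeq2 on whole footprint reads, and 2 had an unadjusted p below 0.05. The background is as low, since 0.02% of all genes passed. The log2 change was positive for 38 of the 54, with a median of 0.08 over the members and -0.0027 over all genes, and the smallest adjusted p was 0.851. A p that misses the threshold does not show that footprints were equal, and 95% intervals give the size of change that these libraries leave possible.

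Eif5b had 2405, 1940.5, 2006, 2633 and 2855 normalized footprint reads in KO hearts, against 2390.0, 1646, 2507 and 2690.1 in WT hearts, a log2 change of 0.045 ± 0.16 with a 95% interval of -0.29 to 0.38. Eif3a had 6114, 5156, 6353, 6441 and 6289 normalized footprint reads in KO hearts, against 6062, 4808, 6263 and 5820.3 in WT hearts (0.084 ± 0.11, interval -0.16 to 0.32). For both genes the interval does not reach the fall seen in RNA. Eif5 had 689, 1041, 945, 1220.2 and 1188 normalized footprint reads in KO hearts, against 1260.5, 980.2, 657 and 933 in WT hearts (0.095 ± 0.20, interval -0.32 to 0.51). Eif4e2 had 781, 709, 652, 595 and 753 normalized footprint reads in KO hearts, against 708, 745, 730.3 and 654 in WT hearts (-0.028 ± 0.14, interval -0.33 to 0.27). The fall of each of these in RNA lies outside its footprint interval too. Eif4g2 had 8443, 9982, 8468, 9359.8 and 9558 normalized footprint reads in KO hearts, against 9045, 11238, 8713 and 9992 in WT hearts, and its interval was -0.32 to 0.14. Eef2kmt had 290.1, 204, 285, 337 and 283 normalized footprint reads in KO hearts, against 344, 259, 338 and 379.5 in WT hearts, with an interval of -0.67 to 0.19 around -0.24 ± 0.20. Its RNA was higher in KO, while its footprint change was negative and did not pass. Eif4ebp1 had 709.5, 793, 1165, 879 and 806 normalized footprint reads in KO hearts, against 644, 794, 1056 and 959 in WT hearts (0.016 ± 0.18, interval -0.36 to 0.39).

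The 4 members with the smallest unadjusted p in footprints were Eif4h, Eif1b, Eef1g and Eif2b1, whose adjusted p was shared with other members. Eif4h had 4449, 4749.8, 4492, 5085 and 3953 normalized footprint reads in KO hearts, against 3762, 3503, 4041 and 4023 in WT hearts, a log2 change of 0.24 ± 0.11 (adjusted p = 0.851). Its RNA was 899, 929, 919, 956 and 955 normalized reads in KO hearts, against 901, 859.9, 1029 and 971 in WT hearts (-0.011 ± 0.06), so neither assay passed. Eif1b had 1169, 1076, 1153, 1436 and 1260.1 normalized footprint reads in KO hearts, against 1388, 1929, 1241 and 1609.8 in WT hearts (-0.33 ± 0.15, adjusted p = 0.851). Eif2b1 had 755, 1079, 1102, 1025 and 894 normalized footprint reads in KO hearts, against 837, 742, 763 and 839 in WT hearts (0.28 ± 0.15, adjusted p = 0.851). Only KO heart 6 fell into the WT range of Eif2b1. Eef1g had 361, 123, 484, 317 and 293 normalized footprint reads in KO hearts, against 215, 135, 207 and 215 in WT hearts, so KO heart 7 was below every WT heart and the other 4 KO hearts above every WT heart (0.60 ± 0.32, adjusted p = 0.851). The cap-binding factor Eif4e overlapped between genotypes, with 629, 612, 514, 577 and 515 normalized footprint reads in KO hearts, against 506, 476, 565 and 635 in WT hearts (0.065 ± 0.16). Eif5a did too, with 2279, 2760.3, 2783, 2681 and 2339.7 normalized footprint reads in KO hearts, against 2569, 2361, 2295 and 2912 in WT hearts (0.021 ± 0.12).

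Changes in RNA and in footprints were set side by side for each member. Over the 54 members with both, the SD of the log2 change was 0.38 in RNA and 0.24 in footprints. The correlation across these genes was r = -0.10 (rho = -0.03), against r = 0.07 over all genes, and 21 of 54 (38.9%) had the same sign in both assays, against 50.6% of all genes. These are descriptions over genes that share the same 18 libraries. Together the members took 1.17% ± 0.03 of all RNA reads in KO and 1.21% ± 0.02 in WT (SD, n = 5 and 4). In footprints they took 0.818% ± 0.134 in KO and 0.733% ± 0.075 in WT, of which Eef1a2 alone made 0.295% ± 0.074 in KO and 0.251% ± 0.021 in WT.

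Efficiency, the footprint signal relative to the RNA signal, was tested as the interaction of genotype and assay. In this test 8 of 54 members were higher in KO (14.8%) and 2 were lower (3.70%), where 7.83% of all genes were higher, 6.55% lower and 14.4% either. Higher in efficiency were Eif5b (log2 change 0.82 ± 0.18, adjusted p = 0.00483), Eif3a (0.74 ± 0.11, adjusted p = 0.000234), Eif4e2 (0.70 ± 0.14, adjusted p = 0.00263), Eif5 (0.82), Eif2a (0.62), Eif2b1 (0.54), Eif3h (0.51) and Eif3k (0.44). Lower were Eef2kmt (-1.26 ± 0.22, adjusted p = 0.000952) and Eif4ebp1 (-0.70 ± 0.23, adjusted p = 0.0453). All 10 had also passed in RNA, and each had the opposite sign there. The RNA values enter both tests, so this opposition is partly built in. In the footprint to RNA ratio of single hearts, Eif5b stood at 0.965, 0.719, 0.716, 0.963 and 1.01 in KO hearts, against 0.542, 0.367, 0.545 and 0.532 in WT hearts. For Eif3a the ratio was 1.42, 1.21, 1.45, 1.49 and 1.46 in KO hearts, against 0.897, 0.698, 0.921 and 0.86 in WT hearts, and for Eif4e2 it was 1.76, 1.56, 1.34, 1.31 and 1.37 in KO hearts, against 0.942, 0.892, 1.03 and 0.757 in WT hearts. The ratio of Eef2kmt was 2.58, 1.78, 2.12, 3.10 and 2.31 in KO hearts, against 5.62, 4.65, 6.21 and 6.23 in WT hearts. None of these 4 ratios overlapped between genotypes. The 4 members were chosen for the smallest adjusted p in efficiency, so this is largely set by the choice and is no separate support. All 4 passed under every alternative tried.

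The other 6 efficiency calls depended on single libraries. Eif2b1 lost its call without KO heart 7, 8 or 9 or WT heart 2, 3 or 4 (0.49 to 0.54) and Eif3h without KO heart 6, 8, 9 or 10 or WT heart 1, 2 or 3 (0.42 to 0.52). Eif3k lost it without KO heart 8 or WT heart 1 or 2 (0.37 to 0.41), Eif2a without WT heart 3 (0.59) and Eif5 without WT heart 3 (0.68) or 4 (0.79). Eif4ebp1 lost it without KO heart 7, 9 or 10 or WT heart 2, 3 or 4 (-0.70 to -0.64). Quantile normalization ended the calls of Eif2a (0.51), Eif3h (0.44) and Eif3k (0.34), and fitting without a filter that of Eif4ebp1 (-0.70). Calls gained with a heart left out were Eif4g2 without WT heart 2 (0.38), Eif6 (-0.73) and Eef1g (0.98) without KO heart 7, and Eif3f without KO heart 8 (-0.63). The counts of members called fell to 4 higher without WT heart 3 and 5 without KO heart 8. With the heart as a replicate block, 10 members were higher and 2 lower, with Eif4g2 (0.31, limma adjusted p = 0.0359) and Eif4g1 (0.40, adjusted p = 0.0426) added.

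In the class column of the authors' deposited table, 12 members were called buffered, a class of 15.2% of all genes there, and the other 43 unchanged. These 12 (21.8% of members) were the 10 members above with Eif6 and Eif3j2 added. For Eif6 the authors' deposited table gives a log2 change in efficiency of -0.63 with an adjusted p of 0.0459, turned here to KO over WT, while the limma fit gave -0.63 and did not pass (adjusted p = 0.0568). For Eif3j2 the authors' deposited table gives 0.62 and 0.0422, against 0.82 and 0.0874 fitted here.

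Footprints of some members varied together from heart to heart within a genotype. The members Eef1a1, Eef1b2, Eef1d, Eef1g, Eef2, Eif3e, Eif3f, Eif3h and Eif4b, 9 in all, belong to the TOP mRNAs, a class known for a pyrimidine tract right at the cap through which mTORC1 and LARP1 control their translation as a block. In footprints, KO heart 8 was the highest KO heart for all 9 and KO heart 7 the lowest for 7. Among the WT hearts, heart 2 was the lowest for 6 and heart 4 the highest for 6. For the 45 other members with footprints, KO heart 8 was highest for 12, KO heart 7 lowest for 17, WT heart 2 lowest for 26 and WT heart 4 highest for 17. Eef2 had 16357, 7374, 28032, 20556 and 12618 normalized footprint reads in KO hearts, against 11236, 6778, 13283 and 15793 in WT hearts. Eif3f had 2907, 2014, 5484, 3882 and 2715 normalized footprint reads in KO hearts, against 2762, 2816, 2761 and 3217 in WT hearts, with the same heart at the top of the KO group. Eif4b had 2240.3, 1399, 3374, 2817 and 1364 normalized footprint reads in KO hearts, against 1475, 1291, 1747 and 2019.7 in WT hearts. The KO hearts thus spanned 7374 to 28032 for Eef2 in footprints, while its RNA spanned 29763 to 31349 in the same hearts.

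The SD of log2 footprints within genotypes had a median of 0.42 over the 9 TOP members and 0.25 over the 45 others, while in RNA it was 0.064 over the TOP members and 0.088 over the other 46. As a median over the TOP members, footprints stood 0.63 above the KO mean in heart 8 and 0.67 below it in heart 7, on the log2 scale, where the others stood 0.09 above and 0.11 below. WT hearts differed less between the sets, at -0.25 for the TOP members and -0.13 for the others in WT heart 2, 0.18 and 0.11 in WT heart 4, and 0.08 for both in WT heart 3. KO heart 7 and WT heart 2 were also the shallowest footprint libraries of their genotypes, at 22.9M and 6.67M reads, while KO heart 8, at 26.7M, was not the deepest, which was KO heart 6 at 40.8M. The part of depth in this order was not tested. Since the TOP members moved together from heart to heart, like signs among them are not separate observations. Between genotypes all 9 had a positive footprint change, as had 38 of all 54 members tested, and none passed. For Eef2 it was 0.46 ± 0.30 with a 95% interval of -0.17 to 1.09, and for Eef1a2, which is not among the 9 and had 64807, 46584, 92434, 78663 and 53723 normalized footprint reads in KO hearts, against 52306, 53762, 57492 and 62713 in WT hearts, 0.21 ± 0.17 with -0.14 to 0.56. KO heart 8 was the highest heart for Eef1a2 as well. Without KO heart 8 the footprint change of Eef1a1 turned to -0.0075 and that of Eif3f to -0.041.

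**Figure D3:**
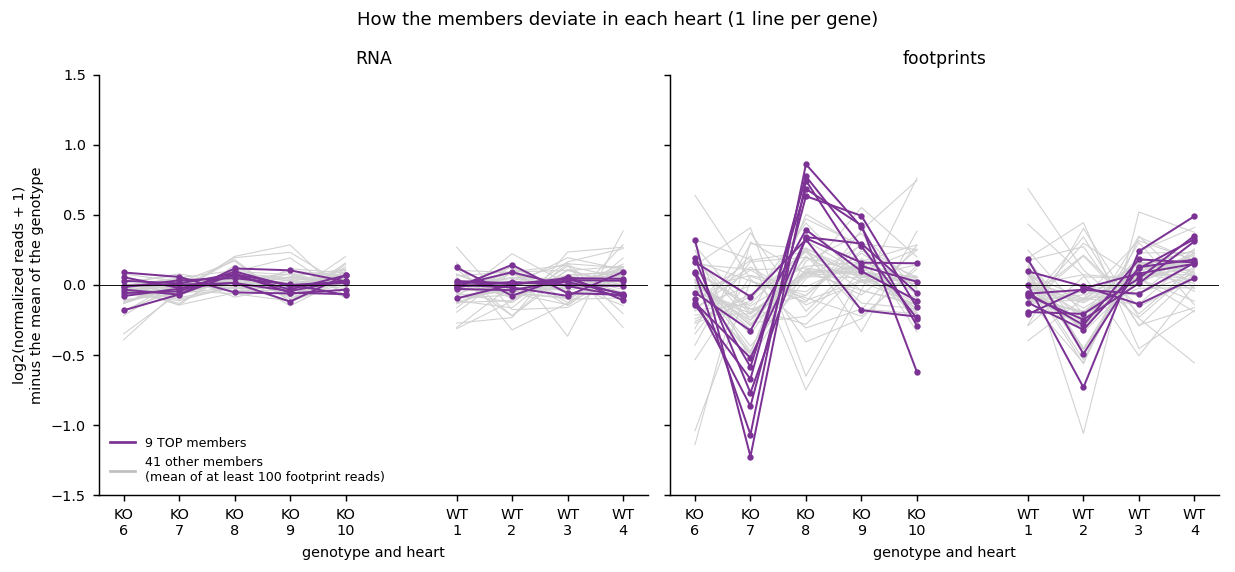
Log2 of normalized reads plus 1, minus the mean of the genotype, in each heart, for RNA (left) and footprints (right). Purple lines are the 9 TOP members and grey lines 41 other members, leaving out 5 with a mean under 100 normalized footprint reads. In footprints KO heart 8 is the highest KO heart for all 9 purple lines and KO heart 7 the lowest for 7 of them. In RNA the purple lines stay closer to 0.

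The start regions of 5 TOP members are shown because this tract defines the class. Each line gives 40 bases before and 20 bases from the annotated start, from RefSeq on the GRCm38.p6 build, on the strand of the gene, with the longest run of C and T in capitals, the first where runs are equal.
Eif3f (chr7:108934375-108934434, plus strand): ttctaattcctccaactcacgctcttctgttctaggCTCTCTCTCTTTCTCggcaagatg
Eef1a1 (chr9:78481705-78481764, minus strand): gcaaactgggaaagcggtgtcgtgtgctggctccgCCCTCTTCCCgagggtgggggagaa
Eef2 (chr10:81176591-81176650, plus strand): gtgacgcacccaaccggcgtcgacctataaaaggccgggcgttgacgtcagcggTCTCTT
Eif4b (chr15:102073733-102073792, plus strand): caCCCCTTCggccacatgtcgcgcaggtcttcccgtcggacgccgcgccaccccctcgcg
Eef1b2 (chr1:63176791-63176850, plus strand): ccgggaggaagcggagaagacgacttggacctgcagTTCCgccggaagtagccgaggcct
Eif3f holds a run of 15 pyrimidines across its annotated start, a length reached by 2.63% of all 32851 windows, and Eef1a1 a run of 10, reached by 11.7%. Eef2 has a run of 6 within the window, which 51.2% of windows hold, but it meets the window's end and is 8 bases long in the full RefSeq stretch. Eif4b has 3 equal runs of 7 (35.3%), and Eef1b2 has one of 4 (89.3%). The median longest run was 7 over these 5 windows and 6 over all windows, each window counted singly. Over the 42 members with a window it was 6.5, a value taken from the longest run of a gene with several windows. The TOP members Eef1d, Eef1g, Eif3e and Eif3h had no window. Members outside the TOP set held longer runs than Eif3f across the annotated start, 21 in Eif2b5 (0.667% of windows) and 16 in Eif2s3x (2.03%). A long run in these windows is therefore not particular to the TOP members. Runs were read on the gene's strand, counting C and T, and an annotated start need not be the one used in heart, so a short run says only that these letters are not in this window.

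Members differed widely in how many footprints they gave per RNA read. The median footprint to RNA ratio over the members was 1.27 in KO and 1.16 in WT, against 1.40 in KO and 1.35 in WT over all genes with a mean RNA signal of at least 10. Eif4h had the highest ratio in KO, at 4.88 ± 0.45 in KO and 4.08 ± 0.11 in WT (SD, n = 5 and 4), and Eef2kmt the highest in WT, at 2.38 ± 0.50 in KO and 5.68 ± 0.74 in WT. The 3 eIF4G genes had ratios of 0.519 to 0.585 in KO and 0.436 to 0.446 in WT. Most eIF3 subunits were above 1, with Eif3g at 3.12 ± 0.21 in KO and 3.28 ± 0.34 in WT, but Eif3h was at 0.887 ± 0.156 in KO and 0.625 ± 0.124 in WT. No coding lengths were used here, so levels of different genes are compared only through this ratio.

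A few members gave few footprints for their RNA. Eif1 had 1.65, 8.65, 0, 56.3 and 37.3 normalized footprint reads in KO hearts, against 11.5, 10.4, 21.8 and 28.8 in WT hearts, although its RNA was at least 2517 normalized reads in every heart. Eif4a1 had 74.3, 16.3, 52.1, 5.92 and 40.6 in KO hearts, against 30.9, 13.8, 29.6 and 34.8 in WT hearts, and a ratio of 0.016 in KO and 0.015 in WT. Eef1a1 had 1060.1, 893, 1185, 835 and 809 in KO hearts, against 778, 884, 951 and 998 in WT hearts, a ratio of 0.074 in KO and 0.069 in WT, where Eef1a2 reached 2.49 in KO and 1.79 in WT. Eef1g stood at 0.062 in KO and 0.036 in WT, Eif3j1 at 0.015 in KO and 0.012 in WT, and Eif2s3x at 0.103 in KO and 0.078 in WT. Eif4ebp3 was listed at 0 footprints in every library, and a count of 0 allows up to 3 reads in each, for counting error only. Some of these genes have pseudogenes named after them, 3 for Eif1, 2 for Eef1a1 and 1 for Eif2s3x, and Eif3j1 has the copy Eif3j2. None was found under the symbol of Eif4a1, Eef1g or Eif4ebp3, but a search by symbol misses copies named otherwise. Eif3e has 4 named pseudogenes and Eef2 has 1, with Eif3e at a ratio of 1.16 in KO and 1.03 in WT. The labels do not state how short reads that match several places were counted, and its part in these low values was not tested, so these footprint levels are uncertain. RNA of Eif3j1 and Eif3j2 differed by at most 0.964% in any library, but their mean footprints were 10.7 and 157 normalized reads. The ratios of this pair, and the efficiency change of Eif3j2, are therefore uncertain as well.

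**Figure D4:**
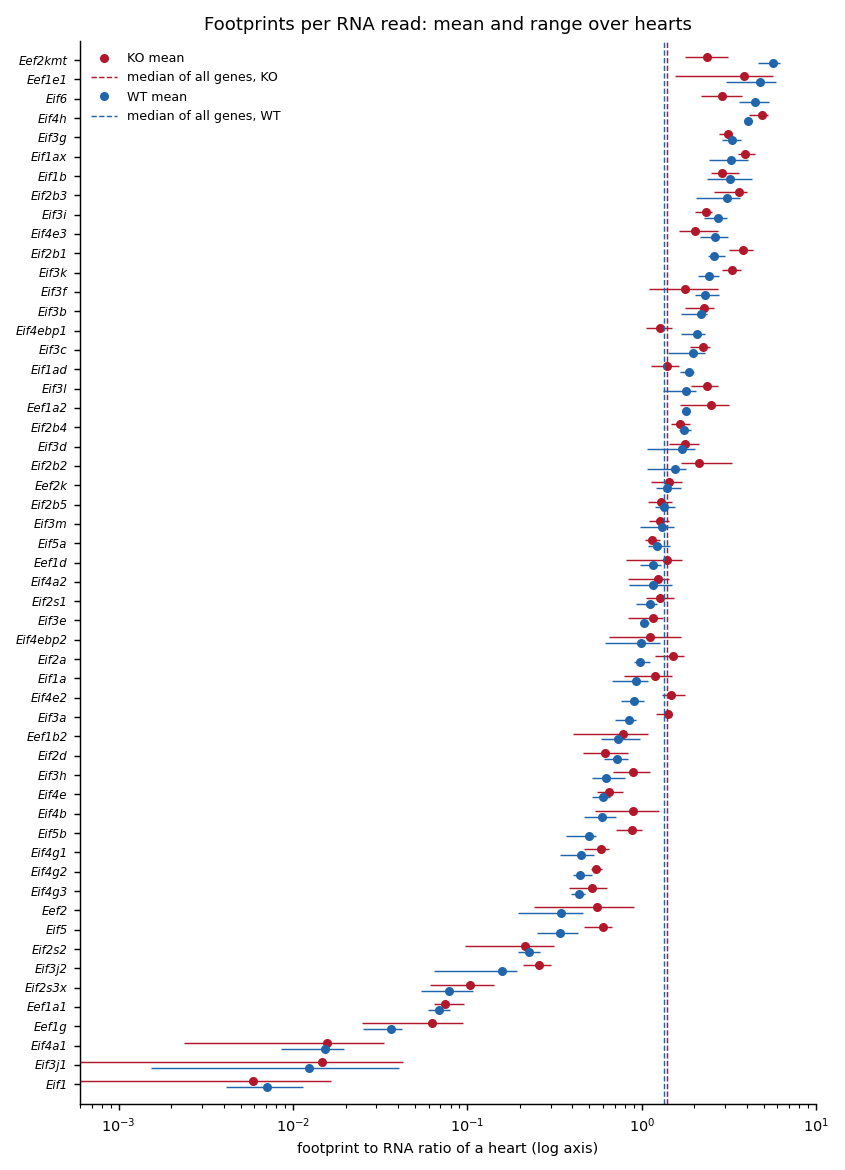
Footprint to RNA ratio of 54 members on a log axis, with the mean (point) and the range over hearts (line), KO above WT for each gene, ordered by the WT mean. Dashed lines mark the median of all genes, 1.40 in KO and 1.35 in WT, and a line that reaches the left edge includes a heart at 0. The means spread widely to both sides of 1, and Eif1, Eif3j1, Eif4a1, Eef1g, Eef1a1 and Eif2s3x lie at the low end.

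Paralogue pairs were compared as ratios within a library, which do not depend on its scaling. In RNA, the ratio of Eif4a2 to Eif4a1, the helicase pair, was 1.81 ± 0.18 in KO and 2.66 ± 0.31 in WT (SD, n = 5 and 4; exact permutation test, two-sided p = 0.0159, adjusted p = 0.0476 over 9 tests). Eif4ebp2 to Eif4ebp1 was 0.335 ± 0.060 in KO and 0.580 ± 0.120 in WT, and Eif1b to Eif1 was 0.121 ± 0.009 in KO and 0.190 ± 0.018 in WT, both with the same exact p. That p is the smallest that 5 against 4 hearts allow, and in each of the 3 pairs all KO hearts lay below all WT hearts. Eef1a2 to Eef1a1 was 2.11 ± 0.21 in KO and 2.40 ± 0.26 in WT (exact p = 0.111, adjusted p = 0.25), and Eif4g3 to Eif4g1 was 0.154 ± 0.012 in KO and 0.156 ± 0.011 in WT (exact p = 0.73). In footprints none of 4 pairs passed, the ratio of Eef1a2 to Eef1a1 being 70.4 ± 16.3 in KO and 62.8 ± 3.12 in WT (exact p = 0.492). The Eif1b to Eif1 ratio could not be formed there without a pseudocount because Eif1 had 0 reads in 1 KO library. That planned test is therefore missing from the 9 of the adjustment. Had it been counted, the 3 RNA ratios would pass at 0.05 only if it too gave the smallest possible p.

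**Figure D5:**
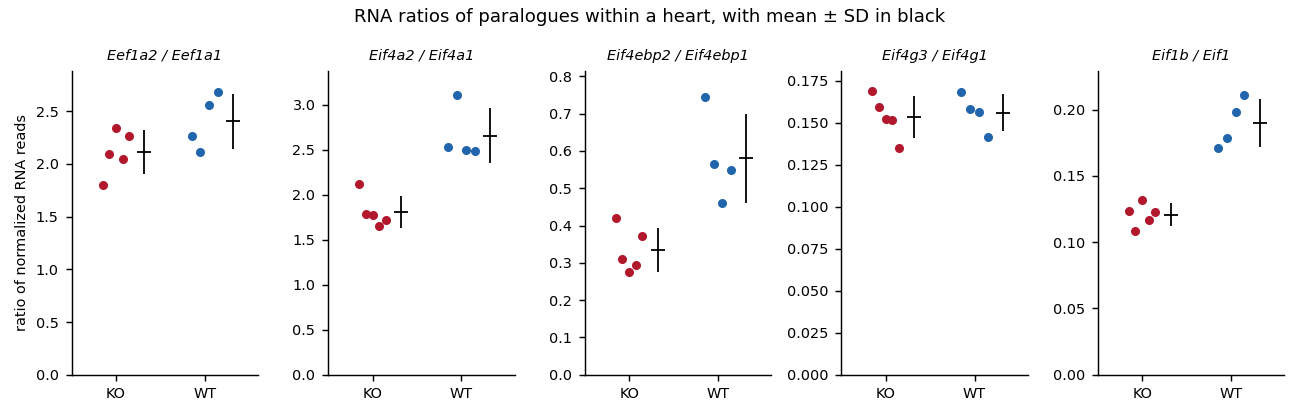
RNA ratio of each paralogue pair in each heart, KO to the left of WT, with mean and SD in black. The KO values lie below all WT values for Eif4a2 to Eif4a1, Eif4ebp2 to Eif4ebp1 and Eif1b to Eif1, and overlap for the other 2 pairs.

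The other genes of the translation pathway were counted in the same tests. Over all genes 24.3% were higher and 25.1% lower in RNA. Of 37 measured regulators and termination factors, 5 were higher and 18 lower in RNA and 14 did not pass, with a median log2 change of -0.19. Abce1, which splits ribosomes after termination, fell by 0.62, Denr, which recycles them and supports reinitiation, by 0.53 and Paip1, a partner of the poly-A binding protein, by 0.52. Dhps, which makes the hypusine of eIF5A, rose by 0.83. Of 22 cytosolic aminoacyl-tRNA synthetases and their partners, 5 were higher and 8 lower, with Aimp2, a scaffold of the synthetase complex, at -0.83, and the charging enzymes for serine (Sars, -0.63), alanine (Aars, -0.48) and arginine (Rars, -0.35) all lower. Of 11 mitochondrial translation factors, 1 was higher, Tsfm at 0.51, and 7 were lower, among them the recycling factor Mrrf at -0.60, the elongation factor Gfm1 at -0.46 and the initiation factor Mtif2 at -0.31. No gene of the 3 lists passed in footprints. In efficiency, where 7.83% of all genes were higher and 6.55% lower, 8 regulators were higher and 1 lower, 4 synthetases were higher and none lower, and 3 mitochondrial factors were higher and 1 lower. Abce1 (0.68) and Aimp2 (0.98) were among those higher in efficiency, and Dhps (-0.93) and Tsfm (-0.42) were lower, each opposite to its RNA change.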

How the data were processed

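Of the 3 deposited tables, each of 10597 genes, that of RNA and that of footprints give a normalized signal, which per the file headers and values is the gene's count over a size factor of the library. The third deposited table gives for each heart footprint signal over RNA signal, a ratio that differed from the quotient by at most 0.0497%, and each table the authors deposited adds a log2 fold change, a p-value and an adjusted p-value, per the file headers. The deposited log2 fold change of efficiency is WT over KO and was turned. The submitters' processing notes name GRCm38 (mm10), DESeq2, HTSeq and STAR 2.7.1a but state neither role nor order. Symbols were found for 10560 gene IDs.

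Log2(value + 1) was fitted with limma 3.58.1 (R 4.3.3), with a mean-variance trend, genes of mean at least 10, and Benjamini-Hochberg adjustment over all genes at 0.05. The scale understates changes of low genes. RNA and footprints were fitted on genotype, efficiency as the interaction of genotype and assay over 18 libraries with no heart term. The efficiency fit takes the same variance for both assays of a gene, though footprints varied more than RNA within genotypes. Paralogue ratios had exact permutation tests over hearts (scipy 1.17.1). Footprint signal divided by the smallest step gave whole reads for 100% of values (tolerance 0.01 reads), and edgeR 4.0.16 and DESeq2 1.42.0 on these reads were alternatives, as were pseudocounts of 0.5 and 5, no filter, TMM, quantile normalization, the authors' values, leaving out each heart and the heart as a replicate block. The fits were tested on simulated data.

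The labels give RNA and footprints of the same number to the same heart, so the numbers pair the libraries. Over 6956 genes, deviations from the genotype mean correlated at 0.197 to 0.503 within a heart (median 0.340) and at a median of -0.0744 between hearts. RNA of 8 hearts, but not of all, correlated most with the footprints of its own heart. Values in every heart are printed for the 8 members with the smallest adjusted p in RNA, 4 each in efficiency and footprints, and Eef1a1, Eef1a2, Eef2, Eif4e, Eif5a and Eif4ebp1. Members and lists were chosen with earlier results of these data known. Footprints of Eif4a1 and Eif4b in single hearts were added after their values were seen. Hearts are separate animals as far as the labels show.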

Additional observations from a re-analysis of the deposited data

Results flagged for a closer look

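Among the named members, 72 groups of 4 or 5 hearts were checked for a heart that stands apart from the others of its genotype. In 3 of them a heart did so, and chance flags about 1 in 20 groups. Eif3a had 5156 normalized footprint reads in KO heart 7, where the other KO hearts had 6114 to 6441. Eif3f had 3217 normalized footprint reads in WT heart 4, where the other WT hearts had 2761 to 2816. Eef1g had 134.6 normalized footprint reads in WT heart 2, the shallowest footprint library, where the other WT hearts had 207 to 215.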

How the results depend on the processing

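Of the 32 RNA calls, 24 kept their call under every alternative run, and of the 10 efficiency calls 4 did (Eif5b, Eif3a, Eif4e2 and Eef2kmt). No footprint call appeared under any alternative. The counts of members lower in RNA (21) and higher in RNA (11) stayed within 1.5 times under all of them. In efficiency, quantile normalization left 5 members higher, and fitting without a filter on low values left 1 lower. Leaving out 1 heart gave 4 to 8 higher and 1 to 3 lower. Quantile normalization turned the RNA change of Eef2 to 0.0502, of Eef1a1 to 0.069, of Eif4e to 0.034 and of Eif4h to 0.076, and the efficiency change of Eef1a1 to -0.0046. Of these only Eef2 had passed. The footprint change of Eif1, with few reads, was 0.014 in the authors' deposited table, 0.18 with DESeq2 and 0.14 with edgeR. The cause of these turns was not tested.

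Signs also turned when 1 heart was left out, for values that had not passed in the comparison named. The log2 change then ran from -0.056 to 0.015 for Eef1a1 and -0.052 to 0.034 for Eif4h in RNA, and from -0.25 to 0.031 for Eif1b in efficiency. In footprints it ran from -0.0075 to 0.13 for Eef1a1, -0.041 to 0.32 for Eif3f, -0.0704 to 0.0274 for Eif4e2, -0.12 to 0.12 for Eif4ebp1, -0.074 to 0.24 for Eif5, -0.025 to 0.089 for Eif5a and -0.11 to 0.13 for Eif5b. The log2 ratio difference ran from -0.0712 to 0.0206 for Eif4g3 to Eif4g1 in RNA, and in footprints from -0.57 to 0.26 for Eif4a2 to Eif4a1 and -0.18 to 0.43 for Eif4ebp2 to Eif4ebp1. For the 3 ratios that passed, unadjusted exact p was 0.0286 to 0.0357 with a heart left out, the smallest such designs allow, and adjustment over 9 tests cannot then pass.

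The heart as a replicate block added Eif4g2 (0.31, limma adjusted p = 0.0359) and Eif4g1 (0.40, adjusted p = 0.0426) to the efficiency calls and changed no other call of the members tested under it. The member median of the footprint to RNA ratio was 1.27 in KO and 1.17 in WT with TMM factors. The alternative that removes a trend on coding length was not run, since no coding lengths were at hand. Few footprint reads limit Eif1, Eif3j1, Eif4a1 and Eif2s3x, and the number of hearts limits the ratio tests.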
